A study of Homo sapiens with 8 samples.

Results

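The unfolded protein response and the ATF4 pathway were followed through 43 genes, which were the listed genes of endoplasmic reticulum (ER) folding, ER degradation, amino acid synthesis and amino acid transport, with their regulators, among the 13307 genes of the normalized count table. They fall into 20 genes of the ER branch (9 chaperones and their partners, 4 disulfide isomerases and related genes, 4 genes of ER-associated degradation and 3 stress sensors or their effectors) and 23 genes of the ATF4 branch (4 transcription factors, 6 stress effectors, 4 genes of amino acid synthesis, 3 of one-carbon metabolism, 4 amino acid transporters and 2 tRNA synthetases). All 43 were present and were tested. The mRNA came from PANC-1, an established line of pancreatic ductal carcinoma, and was sequenced as 2 libraries in each of 4 groups. Cells were transfected with a control siRNA (siControl) or with siRNA against PHF13 (siPHF13), a PHD finger protein that binds methylated histones, and both were grown without TGFβ or, from the day after transfection, with 10 ng/ml TGFβ for 48 h (siControl+TGFβ, siPHF13+TGFβ). Depletion was by transient siRNA in 1 cell line, and the labels do not say whether the duplicates came from separate cultures, so p-values measure the spread between these libraries, which may be technical.

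When unfolded proteins gather in the ER, the sensor kinase IRE1 (the gene ERN1) splices the mRNA of XBP1, and ATF6 and XBP1 then raise the ER chaperones and the degradation machinery. A further sensor, PERK (EIF2AK3), phosphorylates the translation factor eIF2α, which lowers protein synthesis overall but raises translation of ATF4. ATF4 drives genes of amino acid synthesis, amino acid uptake and tRNA charging, and it is also reached by kinases that sense amino acid or heme shortage without any ER stress. Secretory pancreatic cells are known for a heavy ER load, but PANC-1 is a ductal carcinoma line and its ER load was not measured. The libraries counted mRNA on exons, so that neither XBP1 splicing nor ATF4 translation was measured.

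Known motifs of both branches were searched in the sequence just before the transcription starts. In the 250 bases before each start (RefSeq, GRCh38.p14), 38 of the 43 genes had a promoter sequence to search, 19 in each branch, and PDIA3, PSPH, SHMT2, ALDH1L2 and SLC7A11 had none. The ER stress response element, written here as CCAAT and CCACG with 9 bases between them and searched on both strands, was found in 7 of the 19 ER genes (HSPA5, HSP90B1, CALR, CANX, CRELD2, PDIA6 and XBP1) and in 0 of the 19 ATF4 genes. Among all 27305 genes with such a sequence it was found in 25, which is 0.0916%. The C/EBP-ATF response element, TGATGNAA on either strand, was found in 5 of the 19 ATF4 genes (AARS, ASNS, CEBPG, CHAC1 and GARS) and in 1 ER gene, HERPUD1, against 3.89% of all genes. The UPR element TGACGTGG was found in 1 ER gene, HYOU1, against 0.78% of all genes. No 2 of these 3 motifs overlapped in the 43 genes, and a match is a run of letters and not a measured binding site. As examples of the motif of each branch, 3 ER promoters and 3 ATF4 promoters are shown 5′ to 3′, with each match in capitals.
HSPA5 (chr9:125241344-125241593, minus strand): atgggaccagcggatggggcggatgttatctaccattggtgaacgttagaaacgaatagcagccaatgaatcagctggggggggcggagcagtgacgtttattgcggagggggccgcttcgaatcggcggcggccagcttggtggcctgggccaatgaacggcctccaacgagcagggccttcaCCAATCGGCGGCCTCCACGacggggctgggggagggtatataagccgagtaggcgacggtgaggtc
HSP90B1 (chr12:103930160-103930409, plus strand): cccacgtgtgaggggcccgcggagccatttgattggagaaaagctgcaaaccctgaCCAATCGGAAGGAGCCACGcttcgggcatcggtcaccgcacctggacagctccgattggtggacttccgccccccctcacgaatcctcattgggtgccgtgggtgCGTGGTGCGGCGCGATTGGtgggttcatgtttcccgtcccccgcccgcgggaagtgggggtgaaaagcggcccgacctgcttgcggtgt
XBP1 (chr22:28800570-28800819, minus strand): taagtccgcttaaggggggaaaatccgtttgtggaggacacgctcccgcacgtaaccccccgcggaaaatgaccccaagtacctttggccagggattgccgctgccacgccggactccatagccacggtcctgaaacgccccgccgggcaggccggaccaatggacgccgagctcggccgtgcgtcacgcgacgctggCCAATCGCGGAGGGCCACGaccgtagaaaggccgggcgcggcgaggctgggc
ASNS (chr7:97872409-97872658, minus strand): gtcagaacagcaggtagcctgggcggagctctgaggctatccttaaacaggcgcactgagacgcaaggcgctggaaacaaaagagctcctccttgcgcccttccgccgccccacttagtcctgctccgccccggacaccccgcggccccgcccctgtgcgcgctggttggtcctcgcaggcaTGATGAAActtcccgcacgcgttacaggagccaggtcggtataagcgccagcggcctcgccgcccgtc
CHAC1 (chr15:40953221-40953470, plus strand): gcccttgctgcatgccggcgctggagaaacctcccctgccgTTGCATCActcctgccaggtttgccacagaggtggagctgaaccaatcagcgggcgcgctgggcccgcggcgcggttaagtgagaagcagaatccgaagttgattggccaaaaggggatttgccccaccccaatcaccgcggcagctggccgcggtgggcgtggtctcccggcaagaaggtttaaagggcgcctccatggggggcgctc
AARS (chr16:70289507-70289756, minus strand): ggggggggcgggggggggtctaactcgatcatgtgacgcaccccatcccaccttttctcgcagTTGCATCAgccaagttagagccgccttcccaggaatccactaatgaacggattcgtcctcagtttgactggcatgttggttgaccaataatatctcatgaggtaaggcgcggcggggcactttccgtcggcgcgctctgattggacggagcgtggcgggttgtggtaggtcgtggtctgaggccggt
HSP90B1 held the ER stress response element at 2 places, once on each strand. Counted back from the start, the match of HSPA5 began at base -66, that of XBP1 at -52, and those of ASNS, CHAC1 and AARS at -68, -209 and -187. The matches of CEBPG and GARS began at -42 and -33. CEBPG, GARS, ASNS, XBP1, PDIA6 and CANX each had more than 1 listed start, and the match was not before all of them.

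Per kilobase of transcript, the ER branch held the most abundant of the 43 mRNAs. CALR, which encodes the lectin chaperone calreticulin, led the siControl cells with a mean level of 17646 normalized counts per kb, followed by HSP90B1 (15296 per kb) and CANX (11307 per kb). GARS, the glycyl-tRNA synthetase, was the highest of the ATF4 branch at 8533 per kb. ATF4 itself stood at 7597 per kb, whereas ERN1 (216 per kb), VLDLR (40.2 per kb) and ALDH1L2 (17.9 per kb) were the lowest of the 43.

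All 7 markers of the labelled carcinoma line, KRT8 and VIM among them, had rows in the table. KRT7 (379 to 489 normalized counts over the libraries), EPCAM (115 to 306) and CDH1 (79 to 460) were the lowest of them. Of other lineages, 1 of 4 leukocyte markers (CD68), 0 of 3 endothelial, 0 of 4 acinar, 0 of 2 islet and 2 of 5 fibroblast markers (COL1A1 and PDGFRB) had rows. CD68 (6137 to 13400) and COL1A1 (1887 to 16414) lay above KRT7, EPCAM and CDH1, and PDGFRB (26 to 57) lay below them. PHF13 was at 1804 and 1662 normalized counts in siControl, 524 and 558 in siPHF13, 1586 and 1709 in siControl+TGFβ, and 513 and 529 in siPHF13+TGFβ. By PHF13, every library followed the siRNA in its label. PHF13 does not tell the TGFβ groups apart, so the TGFβ part of the labels was not checked by it. The libraries held 39196214 to 46700806 reads on genes, and in such bulk libraries less mRNA per cell and fewer cells of one kind cannot be told apart.

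The comparison of siPHF13 with siControl asks how these genes respond when PHF13 is depleted in cells that received no TGFβ. ER branch genes moved in both directions. The sensor genes ERN1 and EIF2AK3 and the effector gene XBP1 fell together. The disulfide isomerase PDIA3 and the chaperone HSP90B1 rose, and the chaperone HSPA5 did not pass the test. The ATF4 branch divided more widely: the cystine transporter SLC7A11 and the serine synthesis gene PSPH fell, while the asparagine synthetase gene ASNS, the first gene of serine synthesis PHGDH and the factor CEBPB rose. Changes are log2 fold changes ± SE from limma on log2(normalized count + 1), with p-values adjusted over all 13307 genes by the Benjamini-Hochberg method. A gene passed the test at an adjusted p under 0.05, and it was called changed when its log2 fold change was also over 0.58 in size.

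At the adjusted p alone, 5 of 20 ER genes rose and 6 fell, and 10 of 23 ATF4 genes rose and 5 fell. Among all genes 23.1% rose and 24.3% fell, so the ER counts lay near the background, and the ATF4 share of rises lay above it. With the fold threshold added, 0 ER genes were called higher and 2 lower (ERN1 and EDEM1), against 7.95% higher and 10.4% lower among all genes. In the ATF4 branch 2 were called higher (CEBPB and PHGDH) and 4 lower (SLC7A11, TRIB3, VLDLR and PSPH). The median log2 fold change was 0.05 in the ER branch and 0.08 in the ATF4 branch, and all genes together were centred at 0. The SD of the log2 fold changes over genes was 0.32 in the ER branch, 0.56 in the ATF4 branch and 0.61 over all genes. Members of a branch are not replicates of one another, and the difference between the branches was not tested. Without siControl replicate 1 or without siPHF13 replicate 2, only 2 ER genes still passed upward, and without siControl replicate 2, 3 did. After correction for GC content and transcript length, 8 ER genes passed upward, and the ATF4 median was 0.20. The passes of DNAJC3, PDIA4, PDIA6, DNAJB9, CEBPG, SHMT2 and GARS were lost when at least 1 of the libraries was left out.

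**Figure D1:**
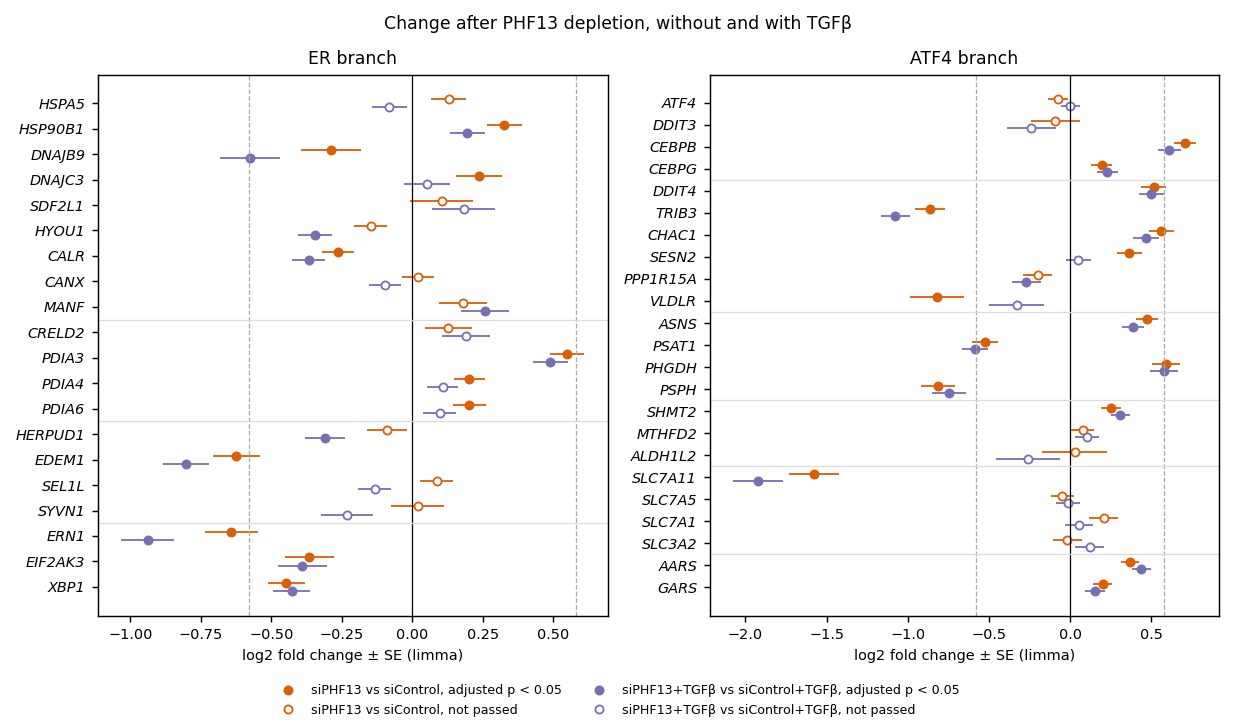
Log2 fold change ± SE (x axis, limma, 2 libraries per group) of each of the 20 ER genes (left) and 23 ATF4 genes (right) after PHF13 depletion, without TGFβ (orange) and with TGFβ (purple). Filled points passed an adjusted p of 0.05, dashed lines mark a log2 fold change of 0.58 in either direction, grey lines separate the roles, and the panels have different x scales. ERN1, EIF2AK3 and XBP1 lie left of 0 in both comparisons, and SLC7A11 lies farthest left at -1.58 and -1.92.

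The sensors and their effector are given first. Gene positions are those of the GENCODE annotation lifted to GRCh37, the assembly called hg19 in the submitters' processing notes. ERN1 (chr17:62116440-62208179, minus strand), which encodes IRE1, was at 1712 and 1700.2 normalized counts in siControl, 1080.2 and 1106 in siPHF13, 2184 and 2054 in siControl+TGFβ, and 1218 and 1002 in siPHF13+TGFβ. The 4 PHF13-depleted libraries lay below the 4 others. The log2 fold change was -0.64 ± 0.09 without TGFβ (adjusted p = 8.4e-05) and -0.94 ± 0.09 with it (adjusted p = 2.54e-06). EIF2AK3 (chr2:88856259-88991036, minus strand), the gene of PERK, was at 1647 and 1707 in siControl, 1344 and 1258 in siPHF13, 1840.3 and 1710.5 in siControl+TGFβ, and 1269.5 and 1444 in siPHF13+TGFβ. Here too the depleted and the other libraries did not overlap, and the change was smaller, at -0.37 ± 0.09 and -0.39 ± 0.09. How many of all genes separate in this way was not counted, here or for the genes below. At the adjusted p, 24.3% of all genes fell after depletion without TGFβ and 25.9% with it, so such separation need not be particular to these genes. XBP1 (chr22:29190543-29196585, minus strand), the transcription factor whose mRNA IRE1 splices, was at 2831 and 2902 in siControl, 2115 and 2090.3 in siPHF13, 3023 and 3110.4 in siControl+TGFβ, and 2242 and 2317 in siPHF13+TGFβ. Its total mRNA, spliced or not, fell by 0.45 ± 0.07 without TGFβ and by 0.43 ± 0.07 with it.

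Among the degradation genes, EDEM1 (chr3:5229331-5261643, plus strand), a lectin that passes misfolded glycoproteins on for degradation, was at 4468 and 4659 in siControl, 2915 and 3005 in siPHF13, 5411 and 6024 in siControl+TGFβ, and 3009.7 and 3559 in siPHF13+TGFβ. Depleted libraries were again the 4 lowest, with log2 fold changes of -0.62 ± 0.08 (adjusted p = 3.49e-05) and -0.80 ± 0.08 (adjusted p = 3.22e-06). The other degradation genes were HERPUD1 and the ubiquitin ligase pair SEL1L and SYVN1. None of these 3 passed the test without TGFβ, with log2 fold changes from -0.09 to 0.09. With TGFβ, HERPUD1 fell by 0.31 ± 0.07, and SEL1L (-0.13) and SYVN1 (-0.23) did not pass. After correction for GC content and transcript length, the changes of EDEM1 (-0.52) and ERN1 (-0.57) without TGFβ still passed the adjusted p but lay under the fold threshold.

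The chaperones and isomerases did not move as a block. HSPA5 (chr9:127997132-128003661, minus strand), the ER chaperone BiP, was at 31438 and 33029 in siControl, 35226 and 35256 in siPHF13, 40286 and 39038 in siControl+TGFβ, and 35810.2 and 39215 in siPHF13+TGFβ. The siControl pair was the lowest and the 2 TGFβ-treated groups overlapped. Neither depletion comparison passed for HSPA5, at 0.13 ± 0.06 (adjusted p = 0.103) and -0.08 ± 0.06 (adjusted p = 0.295). PDIA3, an isomerase that works with calreticulin on glycoproteins, rose by 0.55 ± 0.06 and 0.49 ± 0.06, and HSP90B1, the ER form of HSP90, by 0.33 ± 0.06 and 0.20 ± 0.06. PDIA4 and PDIA6 rose by 0.20 each without TGFβ and did not pass with it (0.11 and 0.10). The co-chaperone DNAJC3 rose by 0.24 without TGFβ only, its value with TGFβ being 0.05 with no pass, and the difference between these 2 values was not significant (adjusted p = 0.693).

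Other chaperones fell. CALR changed by -0.26 ± 0.06 and -0.37 ± 0.06, and DNAJB9, an IRE1-regulating co-chaperone, by -0.29 ± 0.11 and -0.58 ± 0.11. HYOU1, a large ER chaperone, did not pass without TGFβ (-0.15) and fell by 0.35 with it. MANF, a secreted ER protein, was at 0.18 with no pass and then rose by 0.26, a change that did not pass after the correction for GC content and length (0.09). CANX, SDF2L1 and CRELD2 passed in neither comparison, with levels of 54620.0 to 59491, 530.2 to 684 and 1306 to 1640.1 normalized counts over the 8 libraries. The levels of HSP90B1 ran from 41980.1 to 59320.4 and those of PDIA3 from 21948 to 37827.

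In the ATF4 branch the factor itself was level. ATF4 (chr22:39915700-39918688, plus strand) mRNA was at 10766 and 10795 in siControl, 10365 and 10111 in siPHF13, 10671 and 9908 in siControl+TGFβ, and 10111 and 10483 in siPHF13+TGFβ. Its groups overlapped once TGFβ was present, and its log2 fold change was -0.07 ± 0.06 without TGFβ and 0.00 ± 0.06 with it. DDIT3 (chr12:57910371-57915520, minus strand), the pro-apoptotic factor CHOP, was at 893 and 851 in siControl, 902 and 743 in siPHF13, 869 and 861 in siControl+TGFβ, and 607 and 885 in siPHF13+TGFβ. The replicates of the depleted groups lay far apart, and neither change passed (-0.09 ± 0.15 and -0.24 ± 0.15). CEBPB (chr20:48807367-48809205, plus strand), a partner of ATF4 on DNA, was at 2868 and 2662 in siControl, 4667 and 4360.1 in siPHF13, 3629 and 3368 in siControl+TGFβ, and 5277 and 5407 in siPHF13+TGFβ. It was highest in the depleted libraries, with 0.71 ± 0.07 (adjusted p = 2.44e-06) and 0.61 ± 0.07 (adjusted p = 8.09e-06), and a value of 0.41 with TGFβ after the correction for GC content and length. CEBPG, a further partner, rose by 0.19 ± 0.06 and 0.23 ± 0.06.

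The 6 stress effectors moved in different directions. TRIB3 (chr20:343479-378203, plus strand), a pseudokinase that restrains ATF4 activity, was at 1431 and 1600.2 in siControl, 862 and 800.0 in siPHF13, 1730.3 and 1604 in siControl+TGFβ, and 789 and 789 in siPHF13+TGFβ. All 4 depleted libraries were below all 4 others, and the log2 fold changes were -0.86 ± 0.09 (adjusted p = 4.47e-06) and -1.08 ± 0.09 (adjusted p = 5.37e-07). VLDLR (chr9:2621182-2660056, plus strand), a lipoprotein receptor, was at 379 and 362 in siControl, 239.7 and 182 in siPHF13, 375 and 308 in siControl+TGFβ, and 252 and 289.7 in siPHF13+TGFβ. It fell by 0.82 ± 0.17 without TGFβ (adjusted p = 0.00112) and was at -0.33 ± 0.17 with it (adjusted p = 0.116), a difference that did not pass (interaction 0.49 ± 0.24, adjusted p = 0.55). CHAC1, which degrades glutathione, rose by 0.56 ± 0.08 and 0.47 ± 0.08, and DDIT4, an inhibitor of mTOR signaling, by 0.52 ± 0.08 and 0.50 ± 0.08. SESN2, a further mTOR inhibitor, rose by 0.36 ± 0.08 without TGFβ and did not pass with it (0.05). PPP1R15A, a subunit of the eIF2α phosphatase, was at -0.20 with no pass and then fell by 0.27.

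The 3 enzymes of serine synthesis went in different directions. PHGDH (chr1:120191034-120286841, plus strand), the first, was at 1262 and 1462 in siControl, 2031 and 2054 in siPHF13, 1528 and 1389.6 in siControl+TGFβ, and 2198 and 2146 in siPHF13+TGFβ. Depleted libraries were the highest, at 0.59 ± 0.09 and 0.58 ± 0.09, values on either side of the fold threshold. PSAT1 (chr9:80912041-80945009, plus strand), the next, was at 4137 and 4399 in siControl, 3108 and 2824 in siPHF13, 4306 and 4582 in siControl+TGFβ, and 2745 and 3193 in siPHF13+TGFβ, and it fell by 0.53 ± 0.08 and 0.59 ± 0.08. PSPH (chr7:56078744-56119297, minus strand), the last, was at 1794 and 1808 in siControl, 1131 and 927 in siPHF13, 1642 and 1588 in siControl+TGFβ, and 892 and 1036 in siPHF13+TGFβ. It fell by 0.81 ± 0.10 (adjusted p = 2.5e-05) and 0.75 ± 0.10 (adjusted p = 4.57e-05), with no overlap between depleted and other libraries. PSPH has a close pseudogene copy, and how reads shared with it were counted is not given in the sources used here. ASNS rose by 0.47 ± 0.07 and 0.39 ± 0.07.

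One-carbon genes moved little. SHMT2, which passes serine carbon to folate in mitochondria, rose by 0.25 ± 0.06 and 0.31 ± 0.06, and MTHFD2, the next enzyme there, did not pass (0.08 and 0.10, levels of 6711 to 8042). ALDH1L2 (chr12:105413562-105501421, minus strand), the mitochondrial formyltetrahydrofolate dehydrogenase, was at 138 and 128 in siControl, 139 and 132 in siPHF13, 305 and 241 in siControl+TGFβ, and 267 and 192 in siPHF13+TGFβ. Its libraries divided by TGFβ and not by siRNA, and its depletion values were 0.03 ± 0.20 and -0.26 ± 0.20.

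SLC7A11 (chr4:139085251-139163503, minus strand), the cystine and glutamate antiporter, had the largest change of the 43 in both depletion comparisons. It was at 4789.8 and 4548 in siControl, 2003 and 1223 in siPHF13, 5334 and 5513 in siControl+TGFβ, and 1501 and 1362 in siPHF13+TGFβ. The mean of the depleted group was 34.6% of siControl and, with TGFβ, 26.4% of siControl+TGFβ. The log2 fold changes were -1.58 ± 0.15 (adjusted p = 2.27e-06) and -1.92 ± 0.15 (adjusted p = 3.27e-07), although the 2 siPHF13 libraries differed from each other. SLC3A2, the chain that pairs with SLC7A11 at the membrane, was at -0.02 and 0.12 and did not pass, nor did the leucine transporter SLC7A5 (-0.05 and -0.01) or the arginine transporter SLC7A1 (0.21 and 0.05). Their levels were 9027 to 11606, 22190.3 to 27701 and 5125 to 6944. The alanyl-tRNA synthetase AARS rose by 0.37 ± 0.06 and 0.44 ± 0.06, and GARS by 0.20 ± 0.06 and 0.15 ± 0.06.

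**Figure D2:**
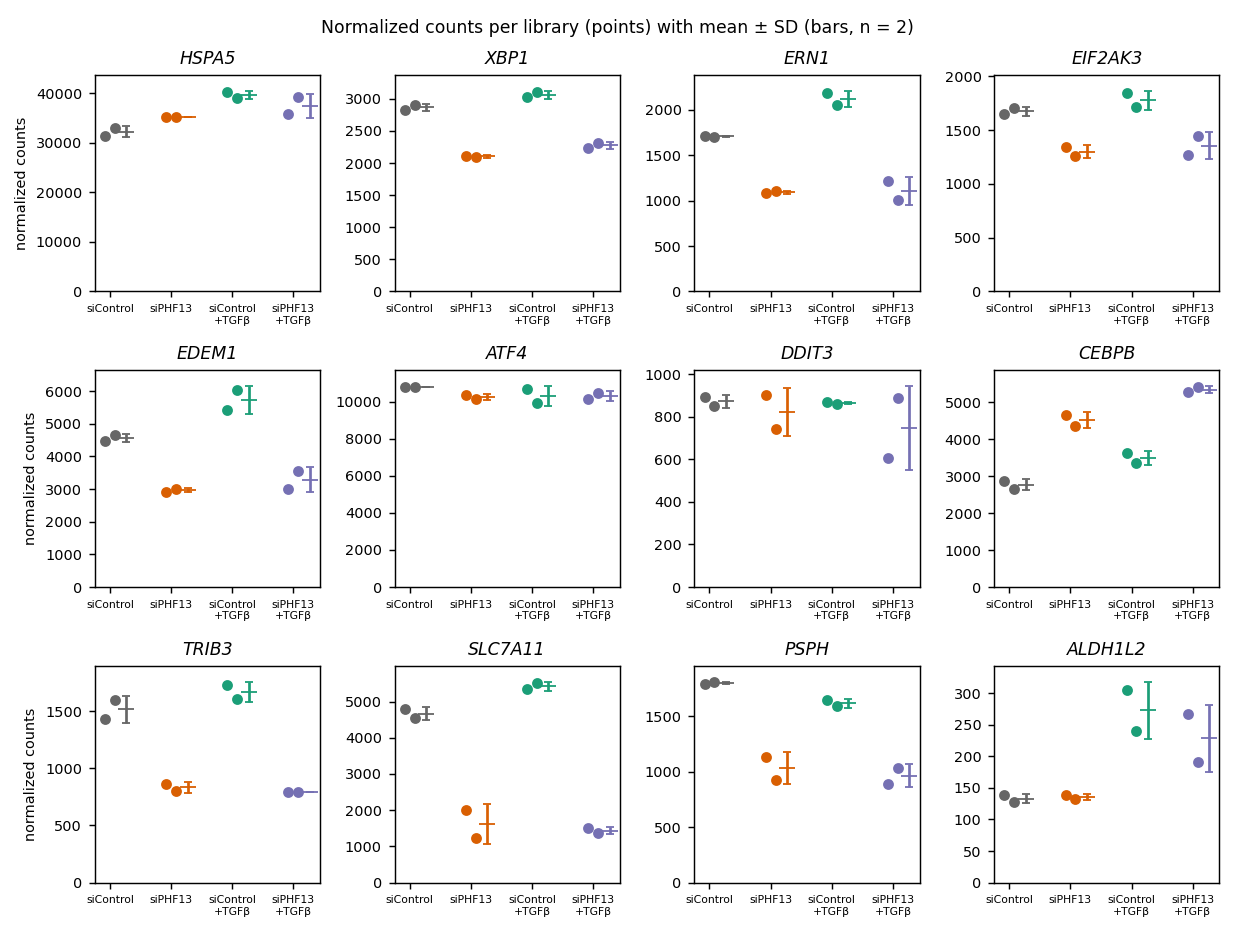
Normalized counts (y axis, from 0) of 12 genes in each of the 8 libraries, as points by group, with the mean ± SD of the 2 libraries beside them. SLC7A11 lies between 1223 and 2003 in the depleted libraries and between 4548 and 5513 in the others, while ATF4 stays between 9908 and 10795 in all 8.

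With TGFβ present, siPHF13+TGFβ against siControl+TGFβ asks whether the same genes depend on PHF13 in cells driven toward the mesenchymal state. At the adjusted p alone, 3 of 20 ER genes rose and 8 fell, and 9 of 23 ATF4 genes rose and 5 fell, against 24.5% higher and 25.9% lower among all genes. With the fold threshold, 0 ER genes were called higher and 2 lower, and 1 ATF4 gene was called higher (CEBPB) and 4 lower (SLC7A11, TRIB3, PSPH and PSAT1). The background was 8.81% higher and 11.7% lower. The ER share of falls lay above the background and its share of rises below it. The median was -0.11 in the ER branch and 0.05 in the ATF4 branch, with 0.00 over all genes. After the correction for GC content and length the ER median was -0.02, with 10 of 20 values above 0. Only 1 ER gene passed upward without either siControl+TGFβ library or without siPHF13+TGFβ replicate 2, or when only the 4 libraries compared were fitted. The ATF4 median became -0.01, and its called genes 3, without siControl+TGFβ replicate 2. The passes of HSP90B1, MANF, CEBPG, GARS and PPP1R15A were lost when at least 1 of the libraries was left out.

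The promoter matches were set beside these values. Each of the 5 ATF4 genes with a C/EBP-ATF match (AARS, ASNS and CHAC1, whose sequences are shown above, and CEBPG and GARS) rose in both depletion comparisons, with medians of 0.37 and 0.39. Of the 14 ATF4 genes whose promoter held no match, 4 rose and 3 fell without TGFβ, and 3 rose and 3 fell with it. HERPUD1, the ER gene with this match, went the other way. It was at -0.09 with no pass without TGFβ and fell by 0.31 with it. Among all 245 tested genes with a match, 20.4% rose and 26.1% fell without TGFβ, against 23.6% and 24.6% of the 9762 with none. In the comparison with TGFβ, 20.8% rose and 30.2% fell, against 25.0% and 26.4%. So the rises of the 5 ATF4 genes were not seen among all genes with a match. With any one of the 4 libraries of the comparison without TGFβ left out, 3 or 4 of the 5 still passed, the others being CEBPG and GARS, and all 5 values stayed above 0. With TGFβ and 1 of its 4 libraries left out, 3 to 5 passed, and GARS did not pass under edgeR or DESeq2. Of the 7 ER genes with an ER stress response element, 2 rose (HSP90B1 and PDIA6) and 2 fell (CALR and XBP1) without TGFβ, and 1 rose and 2 fell with it. Among all 14 tested genes with this element 35.7% rose and 28.6% fell without TGFβ, against 23.5% and 24.7% of the 9993 with none. With TGFβ the shares were 21.4% and 28.6%, against 24.9% and 26.5%.

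The response of control cells to TGFβ is given by siControl+TGFβ against siControl, which shares its siControl libraries with the depletion comparison. All 20 ER genes had a positive change, and 12 rose at the adjusted p while 0 fell, against 9.21% higher and 6.67% lower among all genes. Those 12 held 4 of the 9 chaperones, 3 of the 4 disulfide genes, 4 of the 4 degradation genes and 1 of the 3 sensors or effectors. The changes were small, from 0.03 to 0.49 with a median of 0.22, where the median of all genes was -0.01. In the ATF4 branch 3 of 23 rose (CEBPB, SESN2 and ALDH1L2) and 0 fell, with a median of 0.06.

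HERPUD1 (chr16:56966054-56978776, plus strand), an ER membrane protein of the degradation complex, rose most of the ER branch. It was at 1757 and 1704 in siControl, 1632 and 1618 in siPHF13, 2465 and 2407 in siControl+TGFβ, and 1923 and 2009.7 in siPHF13+TGFβ. The 2 siControl+TGFβ libraries were the highest, with 0.49 ± 0.07 (adjusted p = 0.000311). DNAJB9 rose by 0.41 ± 0.11, SYVN1 by 0.36 ± 0.09, EDEM1 by 0.32 ± 0.08, ERN1 by 0.31 ± 0.09 and HSPA5 by 0.30 ± 0.06 (adjusted p = 0.00449). The rises of SEL1L (0.27), HYOU1 (0.26), PDIA3 (0.26), HSP90B1 (0.21), PDIA4 (0.20) and PDIA6 (0.19) completed the 12. XBP1 (0.10) and EIF2AK3 (0.08) did not pass.

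With the fold threshold, limma called 0 ER genes in either direction, where 14 had an unadjusted p under 0.05, and edgeR and DESeq2 on whole reads also called 0. ALDH1L2 was the 1 ATF4 gene called, at 1.02 ± 0.20 (adjusted p = 0.00289), against 3.27% of all genes called higher and 1.52% lower. SESN2 was at 0.55 ± 0.08 and CEBPB at 0.34 ± 0.07. The number of ER genes that passed depended on the libraries. It was 11 with edgeR and with DESeq2, but 1 without siControl replicate 1, 3 without siControl replicate 2, 5 without siControl+TGFβ replicate 1 and 6 without siControl+TGFβ replicate 2, when 4.58% to 6.73% of all genes still passed upward. In each of these the 20 changes stayed positive, with medians from 0.20 to 0.24. Of the 12 ER genes, HERPUD1 alone passed under every alternative run, and of the 3 ATF4 genes SESN2 alone did. ALDH1L2 no longer passed without siControl+TGFβ replicate 1 (0.85, adjusted p = 0.0505), and then 1 ATF4 gene did.

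**Figure D3:**
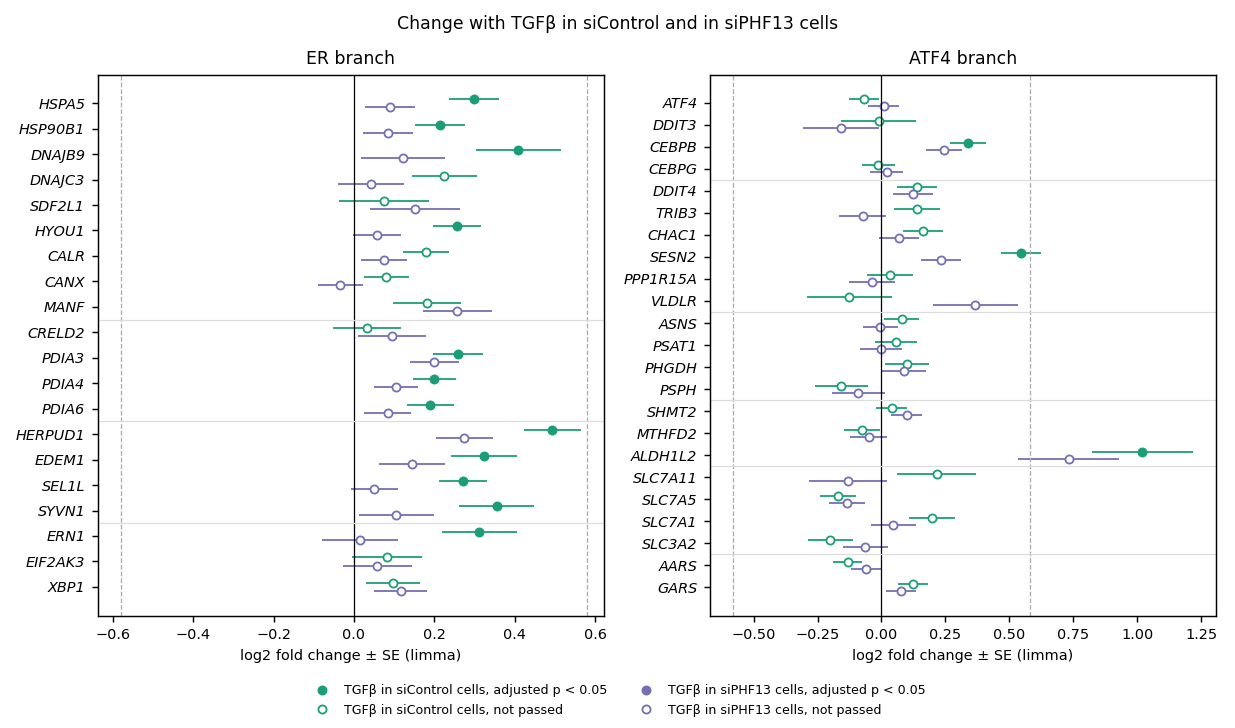
Log2 fold change ± SE (x axis, limma, 2 libraries per group) of the 20 ER genes (left) and 23 ATF4 genes (right) with TGFβ, in siControl cells (green) and in siPHF13 cells (purple). Filled points passed an adjusted p of 0.05, which in siPHF13 cells was reached by 0 of the 43, and the panels have different x scales. The ER genes lie right of 0 in siControl cells, from 0.03 to 0.49.

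In PHF13-depleted cells, siPHF13+TGFβ against siPHF13, limma passed 0 of the 43 genes at the adjusted p, where 2.22% of all genes rose and 0.857% fell, and 1.13% and 0.218% were called with the fold threshold. At an unadjusted p under 0.05 there were 3 ER and 4 ATF4 genes, and the count models were not run here. The ER median was 0.09, with 19 of 20 values above 0, and the ATF4 median was 0.01. HERPUD1 was at 0.27 ± 0.07 (adjusted p = 0.0568) and ALDH1L2 at 0.73 ± 0.20 (adjusted p = 0.0688). HSPA5 was at 0.09 ± 0.06 and ERN1 at 0.02 ± 0.09.

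Passing in control cells and not in depleted cells does not show that the responses differ, and the interaction (the response in siPHF13 cells minus that in siControl cells) tests this. By limma 0 of the 43 genes passed, against 0.0902% higher and 0.323% lower among all genes (0.0601% and 0.248% with the fold threshold). At an unadjusted p under 0.05 there were 5 ER genes and 1 ATF4 gene. The lowest adjusted p was 0.378 in the ER branch (SEL1L, -0.22 ± 0.08) and 0.316 in the ATF4 branch (SESN2, -0.31 ± 0.11). Of the 20 ER values 16 were below 0, with a median of -0.12, and of the 23 ATF4 values 14 were below 0, with a median of -0.05. The sign of the ATF4 median turned without siControl+TGFβ replicate 1 (0.0094) and without siPHF13 replicate 1 (0.0097). ERN1 was at -0.30 ± 0.13 and HSPA5 at -0.21 ± 0.09.

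**Figure D4:**
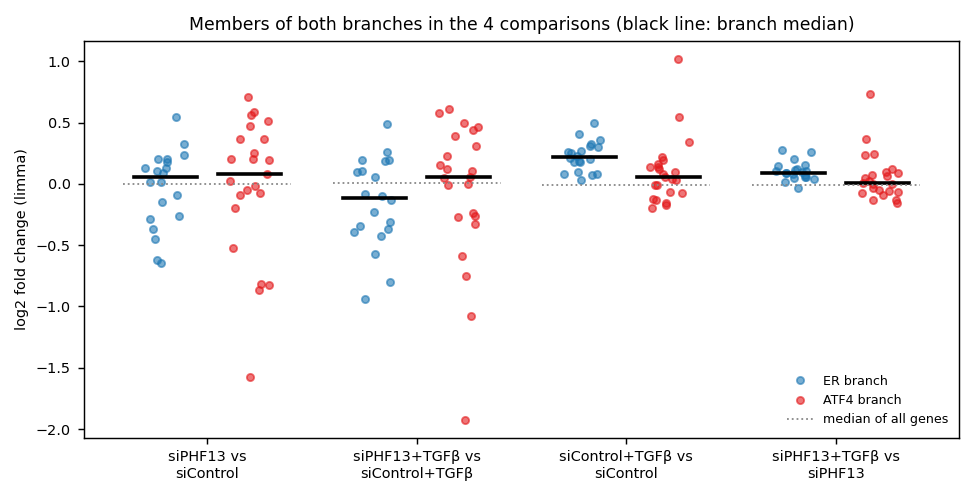
Log2 fold change (y axis, limma) of each ER gene (blue) and ATF4 gene (red) in the 4 comparisons, with the branch median as a black line and the median of all genes as a dotted line. The ER median is 0.22 with TGFβ in siControl cells and lies between -0.11 and 0.09 elsewhere, and the ATF4 genes spread from -1.92 to 0.61 after depletion with TGFβ.

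Further genes of each pathway came from 2 lists of 38 that leave out the 43. The lists, like the 43, were chosen with earlier results of these data known. Their shares are therefore a description and not independent support for the pattern in the 43. Of the other ER stress genes 8 rose and 9 fell at the adjusted p without TGFβ, and 8 and 9 with it, while TGFβ in siControl cells raised 9 and lowered 0. The counts for both depletion comparisons lay near the shares of all genes (23.1% higher and 24.3% lower without TGFβ, 24.5% and 25.9% with it). With TGFβ in siControl cells the rises lay above the 9.21% of all genes. In the depletion comparison without TGFβ, ERO1L, the oxidase that supplies disulfide bonds (0.63 ± 0.08), and SPCS3, a signal peptidase subunit (0.59 ± 0.07), were called higher. With TGFβ both still passed the adjusted p, at 0.57 ± 0.08 and 0.45 ± 0.07, under the fold threshold. SSR3, a subunit of the translocon-associated complex, was called lower. It was at 9903 and 9889 in siControl, 4667 and 4220.0 in siPHF13, 11874 and 12172 in siControl+TGFβ, and 4559 and 4974 in siPHF13+TGFβ, with log2 fold changes of -1.16 ± 0.07 and -1.34 ± 0.07. DNAJC10, an ER reductase, was called lower with TGFβ (-0.75 ± 0.06). Without TGFβ it also fell, by 0.56 ± 0.06, under the fold threshold, and the interaction did not pass.

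Of the other ATF4 and integrated stress response genes 12 rose and 15 fell without TGFβ, and 9 rose and 15 fell with it. TGFβ in siControl cells raised 2 and lowered 2. Against the shares of all genes just given, the falls lay above the background in both depletion comparisons and the rises above it without TGFβ, while with TGFβ in siControl cells 9.21% of all genes rose and 6.67% fell. NUPR1, a stress-induced chromatin protein, was at 519 and 543 in siControl and 1410.4 and 1271 in siPHF13, and rose by 1.33 ± 0.11 without TGFβ and 1.22 ± 0.11 with it. CBS, which makes cystathionine from homocysteine, rose by 0.83 ± 0.07 and 0.84 ± 0.07. PPP1R15B, the constitutive subunit of the eIF2α phosphatase, was at 8737 and 8466 in siControl, 3924 and 3807 in siPHF13, 8201 and 8217 in siControl+TGFβ, and 3628 and 3619 in siPHF13+TGFβ. It fell by 1.15 ± 0.06 and 1.18 ± 0.06, and all depleted libraries were lower than all others. JDP2, a bZIP factor, fell by 1.00 ± 0.13 without TGFβ and by 1.04 ± 0.13 with it. SLC43A1, an amino acid transporter, fell by 1.50 ± 0.46 with TGFβ at 13.5 to 53.5 normalized counts in the libraries compared. Without TGFβ it was at 0.31 ± 0.46 with no pass, and the interaction did not pass.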

How the data were processed

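Polyadenylated mRNA of PANC-1 cells was sequenced as paired-end reads in 8 libraries, 2 for each of 4 groups taken from the sample labels. The authors trimmed reads with Trim Galore 0.4.1, mapped them with STAR 2.7.0 to the human reference (hg19), counted reads on exons with HTSeq 0.12.4 and normalized with DESeq2. As deposited by the authors, the table holds a signal per gene and library, counts divided by a size factor. Tables of the authors' own comparisons (log2 fold changes and p-values) were not used, and 0 columns of other samples were present.

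Values were whole multiples of the worth of 1 read in each library, which gave the depths. In siPHF13 replicate 1 the worth of 1 read was 0.995, close to 1, and the values there were whole multiples of it as elsewhere. As a precaution, edgeR 4.0.16 and DESeq2 1.42.0 were run as alternatives only on the 6 libraries without siPHF13. Comparisons that use the siPHF13 group were therefore not checked with count models. The main test was limma 3.58.1 (R 4.3.3) with a trended variance on log2(value + 1), 1 fit over 8 libraries, over 13307 genes. A minimum of 10 in at least 2 libraries removed 0 genes. The replicates differed by more than counting noise. On simulated data over 13307 genes, limma called 200 of 200 changed genes in each depletion comparison. It also called 0 other genes without TGFβ and 3 with it. The planted changes were all over the fold threshold, in genes with a mean of at least 100, and every gene had the same dispersion. Recovery by size of change was not tested, so these counts do not give the power for small changes. Nor do they give the rate of false calls in the real libraries, whose replicate spread differed between groups. Replicate numbers did not pair the samples (correlations of deviations from -0.09 to 0.05). The members and lists were chosen with earlier results of these data known. Values in every library are given for HSPA5, XBP1, ERN1, EIF2AK3, ATF4 and DDIT3 and for the 4 called members with the largest change per branch and comparison, PHGDH, PSAT1 and HERPUD1 being added after their values were seen. From the 2 lists, the 2 largest called changes in each direction are named. Promoters are from RefSeq (GRCh38.p14) and gene positions from GENCODE on GRCh37. Alternatives were a pseudocount of 5, other minimums, TMM rescaling, GC and length correction (for 13132 genes), fits of the compared libraries alone, a replicate block and leaving out each library.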

Additional observations from a re-analysis of the deposited data

How the results depend on the processing

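Of the 43 genes, 66 gene and comparison pairs passed the adjusted p, and 0 of their 1070 values under the alternatives turned in sign. Many of these values could not turn. The other minimums, the fits of the compared libraries alone, the replicate block and leaving out a library outside the comparison keep the fold change. There only the p-value could move, and dropping the minimum repeated the main fit, so the counts of unchanged values overstate how much was tried. For passing both thresholds together, 1044 values gave the same call, 12 lost it and 14 gained it. At the adjusted p alone 88 values no longer passed, 78 of them with a library left out, and 41 of the 66 pairs passed throughout. The other 10 were GARS, HSP90B1 and MANF with TGFβ, and PDIA6 and ERN1 for TGFβ in siControl cells. PDIA6 was lost with edgeR, DESeq2 and the replicate block (limma adjusted p = 0.0505 with the block). ERN1 was lost with the GC and length correction (log2 fold change 0.22, limma adjusted p = 0.0616). For the genes named from the lists, 20 pairs passed, 12 of 323 values no longer did, and 0 turned in sign. Without the fold threshold, ER genes called were 11 without TGFβ, 11 with TGFβ and 12 for TGFβ in siControl cells, and ATF4 genes 15, 14 and 3. With the correction for GC content and length, 1 ER gene was called for siPHF13 against siControl (PDIA3, higher, at 0.59) in place of ERN1 and EDEM1, and 1 ATF4 gene for siPHF13+TGFβ against siPHF13. Leaving out 1 library at a time, called ATF4 genes ranged from 6 to 7 for depletion and from 3 to 6 for depletion with TGFβ (3 without siControl+TGFβ replicate 2). They ranged from 0 to 2 for TGFβ in siControl cells (0 without siControl+TGFβ replicate 1, 2 without its replicate 2), from 0 to 1 for TGFβ in siPHF13 cells and from 0 to 1 for the interaction. Called ER genes ranged from 2 to 3 in both depletion comparisons and stayed at 0 in the others. With the replicate number as a block, called ER genes were 2, 2 and 0 and called ATF4 genes 6, 5 and 1 for depletion, depletion with TGFβ and TGFβ in siControl cells, and 0 elsewhere, as without it. Replicate numbers do not pair the libraries. PSAT1 with TGFβ lay under the fold threshold with edgeR (-0.57) and DESeq2 (-0.58), as did PHGDH without TGFβ after the GC and length correction (0.58). The count models were not run where siPHF13 libraries enter. With 2 libraries per group, changes near 0.2 on the log2 scale passed or not by which libraries were fitted. The cause of these shifts was not tested.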
